A study of Homo sapiens with 16 samples.

Results

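The interleukin-1 system was followed as 7 genes, taken by name from both count tables: IL1RN, IL1A, IL1B, IL1R1, IL1R2, IL1RAP and IL18, of 26364 genes in all. Bulk RNA-seq had been carried out in 2 human carcinoma lines, Ishikawa (endometrial adenocarcinoma) and T-47D (breast), after 10 nM estradiol (E2) for 0, 2, 4 and 8 h, where 0 h was the vehicle. Each of the 8 groups of cell line and time held 2 libraries, 16 in all, and every group had been kept in hormone-deprived medium with charcoal-stripped serum before treatment. Each tissue was represented by 1 line, so that a difference between tissues and one between these particular lines cannot be told apart. Nothing in the labels says that the 2 replicates came from separate cultures, so the p-values measure the spread between these libraries, which may be technical.

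IL1A and IL1B encode the agonists of the type 1 receptor IL1R1, which signals together with the accessory protein IL1RAP through MYD88, IRAK kinases and NF-kB. IL1RN encodes the receptor antagonist, which binds IL1R1 without recruiting IL1RAP, and IL1R2 is a decoy receptor that lacks a signalling domain. IL18 is a family cytokine that, as IL1B, is matured by caspase-1, and it signals through IL18R1. In the endometrium the system is known for its part in menstruation and implantation.

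On GRCh37 IL1RN lies at chr2:113856892-113891593 on the plus strand, IL1A at chr2:113531502-113542070 and IL1B at chr2:113587328-113594393, both on the minus strand. IL1R1 (chr2:102681004-102796334) and IL1R2 (chr2:102608422-102645006) are neighbours on the plus strand. IL1RAP lies at chr3:190231840-190377539 on the plus strand and IL18 at chr11:112013976-112034819 on the minus strand. The annotation places IL1R1-AS1 on the opposite strand over IL1R1, 2 pseudogenes over IL1RAP and a further transcript on the opposite strand over IL18. The strand setting of the counting is not given in the sources used here, so reads of such overlapping transcripts cannot be told apart from those of the gene.

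RefSeq windows around annotated starts (GRCh38.p14) were listed for 6 of the 7 members, 13 windows in all; none was listed for IL18. Shown here are the 250 bases before a start of the antagonist gene and of both receptor genes with a response to E2, 5′ to 3′ on the plus strand, with an AP-1 match in capitals. They are IL1RN start 1 (chr2:113117721-113117970), IL1R2 start 1 (chr2:101991710-101991959), IL1R2 start 2 (chr2:101998711-101998960) and IL1R1 start 4 (chr2:102142496-102142745).
IL1RN start 1: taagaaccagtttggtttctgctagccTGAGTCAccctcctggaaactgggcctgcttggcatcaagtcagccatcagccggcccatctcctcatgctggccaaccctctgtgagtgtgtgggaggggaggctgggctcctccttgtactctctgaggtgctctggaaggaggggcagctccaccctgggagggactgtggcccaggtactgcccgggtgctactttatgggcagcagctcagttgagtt
IL1R2 start 1: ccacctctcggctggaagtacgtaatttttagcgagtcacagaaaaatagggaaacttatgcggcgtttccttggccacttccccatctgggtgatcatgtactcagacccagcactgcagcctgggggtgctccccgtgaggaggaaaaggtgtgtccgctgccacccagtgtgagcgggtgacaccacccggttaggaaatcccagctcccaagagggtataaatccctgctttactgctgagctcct
IL1R2 start 2: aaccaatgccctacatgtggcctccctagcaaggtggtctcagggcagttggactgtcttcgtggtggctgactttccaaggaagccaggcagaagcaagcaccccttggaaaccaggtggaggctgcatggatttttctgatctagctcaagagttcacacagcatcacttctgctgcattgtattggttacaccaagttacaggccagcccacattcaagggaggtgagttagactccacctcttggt
IL1R1 start 4: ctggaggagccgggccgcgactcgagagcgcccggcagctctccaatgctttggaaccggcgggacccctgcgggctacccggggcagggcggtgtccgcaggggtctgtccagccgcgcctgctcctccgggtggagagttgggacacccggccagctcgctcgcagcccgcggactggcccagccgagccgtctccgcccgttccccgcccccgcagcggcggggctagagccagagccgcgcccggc
Of the 4, the IL1R1 window is the richest in G and C, at 76.8%, against 55.2% and 52.0% for the IL1R2 windows, 59.6% for IL1RN and a median of 58.0% over 35116 windows. The other 3 IL1R1 windows held 39.6 to 52.4%. Both strands of each window, from 250 bases before to 50 after the start, were searched for 4 motifs. The estrogen response element (GGTCA, any 3 bases, TGACC) was in none of the 13 member windows and in 0.05695% of all windows. Its core GGTCA alone, which the full element also holds, was in none of the 13 and in 37.38% of all, and the NF-kB motif (GGGA, any 2 bases, TTCC) was in none of the 13 and in 1.606% of all. The AP-1 motif TGANTCA was in 7.709% of all windows and, among the members, in IL1RN start 1, at positions -223 to -217 from the start, and in both overlapping IL1A windows. Gene counts do not show which start was used, and a match is a description of the letters in a window.

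Ishikawa libraries totalled 41177912 to 58918642 counts and T-47D libraries 41223813 to 64148903. All 5 epithelial markers, EPCAM, CDH1, KRT8, KRT18 and KRT19, averaged over 1 CPM (counts scaled to library size, with one TMM scale for all 16 libraries) in both lines. Of 11 leukocyte markers 1 did so, CD68, and their summed level was 2.04 to 2.94 CPM in Ishikawa and 2.54 to 4.65 CPM in T-47D libraries. CD163, AIF1, TYROBP, CD3E and MS4A1 were at 0 in every Ishikawa library and AIF1 in every T-47D library. Of 6 stromal markers 2 passed 1 CPM in each line, COL1A1 and COL3A1 in Ishikawa and COL1A1 and LUM in T-47D cells. The 6 markers summed to 154 to 277 CPM in Ishikawa and 77.7 to 102.6 CPM in T-47D libraries. Most of each sum was COL1A1, which at 0 h stood at 246 and 269 CPM in Ishikawa and 86.7 and 92.2 CPM in T-47D libraries. In Ishikawa cells, the 4 h and 8 h libraries resembled each other across their labels. The SD of the log2 difference over 11794 genes was 0.137 between 4 h replicate 1 and 8 h replicate 2 and 0.139 between 4 h replicate 2 and 8 h replicate 1, against 0.168 and 0.161 within 4 h and within 8 h. Values with both times as 1 group are therefore given beside the Ishikawa results of the members tested and of the listed genes called.

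At the 0-h time point the lines differed in which receptor had the highest level per kb of exon (plot of levels per length). In CPM per kb of exon, Ishikawa cells had IL1R2 first, at 18.7 ± 0.075 (SD, n = 2), then IL1R1 at 8.99 ± 0.039 and IL1RAP at 1.14 ± 0.025. IL18 at 0.158 ± 0.065 and IL1RN at 0.152 ± 0.0060 followed and overlapped each other. IL1B at 0.0280 and IL1A at 0.0106 CPM per kb were last, on 4 or fewer counts in each 0-h library. In T-47D cells IL1R1 was first at 26.6 ± 0.23 CPM per kb, then IL18 at 5.26 ± 0.67, IL1RAP at 1.83 ± 0.025 and the decoy IL1R2 at 0.124 ± 0.034. IL1A at 0.0605, IL1RN at 0.0318 and IL1B at 0.00822 CPM per kb were the lowest, and the replicates of IL1A and IL1RN overlapped. The other neighbours in either order did not overlap between their 2 replicates as measured. Both orders rest on the exon lengths used, the union of GENCODE exons, while reads were counted over UCSC Known Genes. In CPM without division by length, IL1R1 was above IL1R2 in Ishikawa cells, at 63.8 and 64.2 against 55.4 and 55.1. By CPM IL1R1 was therefore the highest of IL1R1, IL1R2 and IL1RAP in both lines. In T-47D cells IL1RAP, at 20.7 and 20.3 CPM, was above IL18, at 14.9 and 12.5 CPM. The lowest places rest on few counts and are not settled. In Ishikawa cells IL1A held 2 and 0 counts beside 4 and 4 of IL1B, and in T-47D replicate 2 IL1R2 held 12 beside 8 of IL1A.

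**Figure D1:**
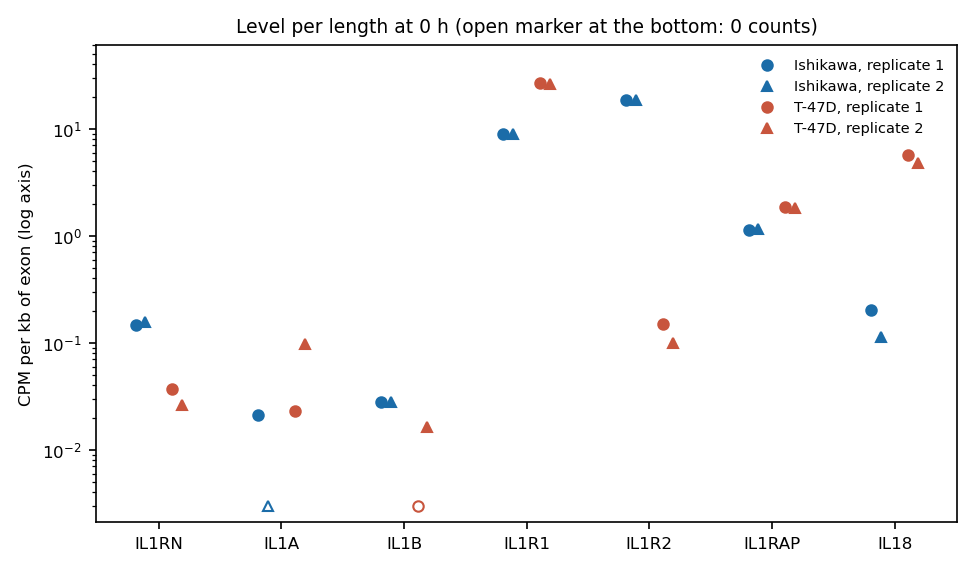
Level of each gene at 0 h in CPM per kb of exon (log axis), 1 marker per library, circles for replicate 1 and triangles for replicate 2, blue for Ishikawa and red for T-47D cells. IL1R2 stands at 18.6 and 18.7 in Ishikawa cells and at no more than 0.148 in T-47D cells; open markers at the bottom are libraries with 0 counts.

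All 5 members that passed the count filter over the 16 libraries differed between the lines at 0 h (edgeR's quasi-likelihood test, p-values adjusted by Benjamini-Hochberg), where 81.9% of the 17090 genes tested also did. IL1R2 was 148-fold lower in T-47D cells (log2 difference -7.21, SE 0.18, adjusted p = 9.14e-19) and IL1RN was 4.69-fold lower (-2.23, SE 0.64, adjusted p = 0.00332). IL18 was 33.1-fold higher in T-47D cells (5.05, SE 0.28, adjusted p = 1.05e-12), IL1R1 2.96-fold higher (1.56, SE 0.07, adjusted p = 2.22e-14) and IL1RAP 1.60-fold higher (0.68, SE 0.09, adjusted p = 5.12e-07). Culture and library preparation go with the line, and their part in these differences was not tested. In bulk RNA, fewer cells with a transcript and less of it per cell cannot be told apart. A requirement of at least 10 counts in every library left only IL1R1 and IL1RAP to be tested.

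The antagonist gene IL1RN was low in both lines. Ishikawa libraries held 26 and 28 counts at 0 h, 19 and 28 after 2 h, 20 and 16 after 4 h, and 18 and 21 after 8 h. In CPM these were 0.553 and 0.585, then 0.433 and 0.4996, 0.486 and 0.374, and 0.301 and 0.466. Every treated library was below both 0-h libraries in CPM, and the 3 treated groups overlapped one another. The log2 fold changes were -0.27 (SE 0.41) after 2 h, -0.40 (SE 0.43) after 4 h and -0.59 (SE 0.42) after 8 h, and none passed the test (adjusted p = 0.797, 0.579 and 0.346). With 4 h and 8 h as 1 group the value was -0.50 (adjusted p = 0.319). T-47D libraries held 6 and 4 counts of IL1RN at 0 h, 4 and 4 after 2 h, 6 and 0 after 4 h, and 0 and 2 after 8 h, under the filter for a test in that line. A library at 0 allows up to 3 counts, which is 0.0479 to 0.0742 CPM across the T-47D and 0.0501 to 0.0729 CPM across the Ishikawa libraries; such limits cover counting error only. IL1RN was therefore not tested within T-47D cells. Over all 16 libraries, its T-47D change minus its Ishikawa change was -0.10 (SE 0.94) after 2 h, -0.74 (SE 1.03) after 4 h and -1.81 (SE 1.24) after 8 h, and none was called.

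The agonist genes were nearly absent from the counts of both lines and passed the filter in neither. IL1A counts in Ishikawa cells were 2 and 0 at 0 h, 2 and 1 after 2 h, 2 and 4 after 4 h, and 3 and 0 after 8 h. In T-47D cells they were 2 and 8, 0 and 1, 12 and 2, and 3 and 7, so that the replicates of 1 group spread as widely as the groups. IL1B counts in Ishikawa cells were 4 and 4 at 0 h, 6 and 4 after 2 h, 2 and 0 after 4 h, and 0 and 0 after 8 h. All 4 libraries at 0 and 2 h were above the 4 later ones, with 20 counts in all 8 libraries together, and no test was made. T-47D libraries held between 0 and 3 counts of IL1B, 10 in all. Among counts from 1 to 10, even numbers made up 71.2 to 74.6% in each library, so a count of 2 can stand for fewer independent fragments.

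**Figure D2:**
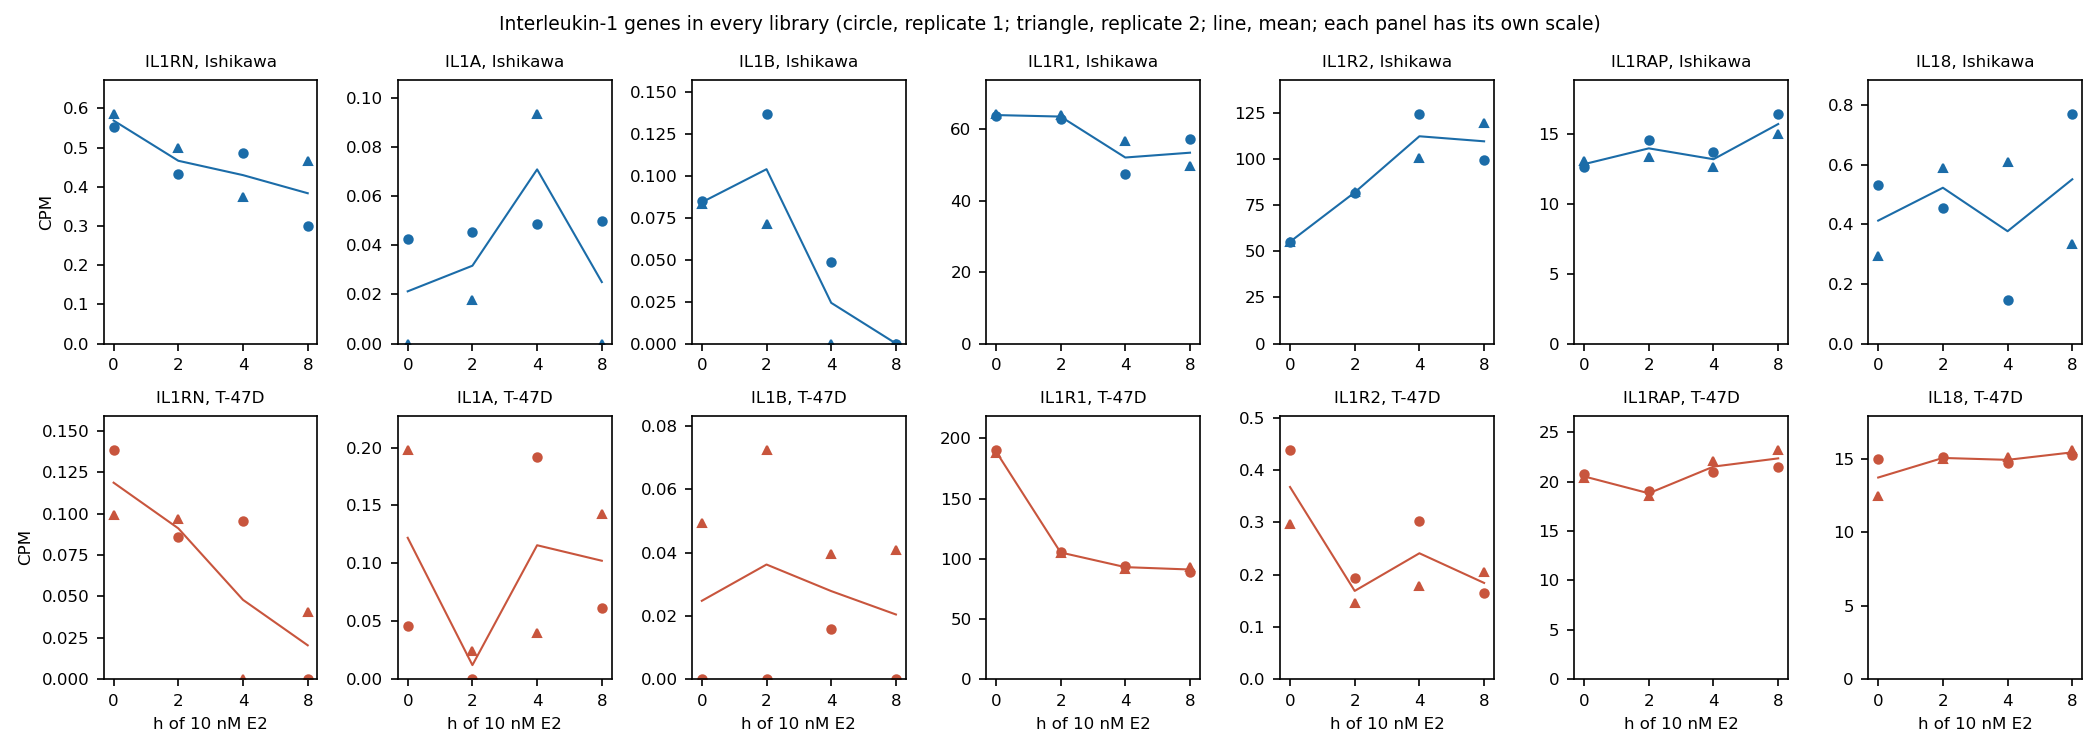
CPM of the 7 genes in every library (upper row Ishikawa, lower row T-47D cells) against hours of 10 nM E2, spaced evenly; circles are replicate 1, triangles replicate 2 and the line joins the means, and each panel has its own scale from 0. IL1R2 in Ishikawa cells goes from 55.4 and 55.1 at 0 h to 99.8 and 119.7 after 8 h, and IL1R1 in T-47D cells from 190 and 188 to 89.3 and 92.8.

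The decoy receptor gene IL1R2 rose in Ishikawa cells at every time. It stood at 55.4 and 55.1 CPM at 0 h, 81.7 and 82.4 after 2 h, 124 and 101 after 4 h, and 99.8 and 119.7 after 8 h, on 2601 to 5973 counts per library. The groups at 0 and 2 h were apart from each other and from all later libraries, and 4 h and 8 h overlapped. The log2 fold change was 0.58 (SE 0.09, adjusted p = 0.00105) after 2 h, 1.03 (SE 0.09, adjusted p = 2.18e-06) after 4 h and 0.99 (SE 0.09, adjusted p = 3.36e-06) after 8 h, a 1.98-fold rise at the last time. With 4 h and 8 h as 1 group it was 1.01 (adjusted p = 2.47e-07). IL1R2 was the 1 member called after 2 h in Ishikawa cells, of 5 tested, where 4.35% of all 15787 genes were called. Its fold change was the 285th highest of these genes after 8 h.

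T-47D cells held few IL1R2 reads, with 19 and 12 counts at 0 h, 9 and 6 after 2 h, 19 and 9 after 4 h, and 8 and 10 after 8 h. In CPM, 1 of the 4 h libraries (0.303) lay between the 0-h libraries (0.439 and 0.297), and the other 5 treated libraries, from 0.145 to 0.204, were below both. The log2 fold changes of -1.12 (SE 0.57) after 2 h, -0.59 (SE 0.51) after 4 h and -0.99 (SE 0.55) after 8 h did not pass the test (adjusted p = 0.264, 0.463 and 0.197).

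The signalling receptor gene IL1R1 fell in T-47D cells, from 190 and 188 CPM at 0 h to 106 and 105 after 2 h, 94.3 and 91.7 after 4 h, and 89.3 and 92.8 after 8 h, on 4336 to 8242 counts per library. All 6 treated libraries were below both 0-h libraries, and 2 h lay above 4 h and 8 h, which overlapped. The log2 fold change was -0.86 (SE 0.05, adjusted p = 2.36e-10) after 2 h, -1.03 (SE 0.04, adjusted p = 1.49e-11) after 4 h and -1.06 (SE 0.05, adjusted p = 7.91e-12) after 8 h, a 2.08-fold fall. IL1R1 was the 1 member called in T-47D cells at each time, of 4 tested, beside 9.30% of 15594 genes after 2 h, 21.5% after 4 h, 29.7% after 8 h and 34.2% at any of these times. At 8 h its fold change was the 260th lowest.

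In Ishikawa cells IL1R1 stood at 63.8 and 64.2 CPM at 0 h, 63.0 and 64.1 after 2 h, 47.4 and 56.8 after 4 h, and 57.2 and 49.7 after 8 h. Of the 2 h libraries 1 lay between the 0-h values and 1 just below them, and the 4 later libraries were lower. The log2 fold change was -0.00075 (SE 0.08) after 2 h, not called, -0.29 (SE 0.09, adjusted p = 0.0358) after 4 h and -0.26 (SE 0.09, adjusted p = 0.0387) after 8 h. The calls at 4 and 8 h were each lost without either 0-h library (adjusted p = 0.160 and 0.177 without replicate 2) or either 2 h library. The first was also lost without 4 h replicate 1 (-0.16, adjusted p = 0.342) and the second without 8 h replicate 2 (-0.18, adjusted p = 0.260). With 4 h and 8 h as 1 group the value was -0.27 (adjusted p = 0.0103). The lower IL1R1 level of 4 h replicate 1 and 8 h replicate 2 goes with the split of the late libraries given above.

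**Figure D3:**
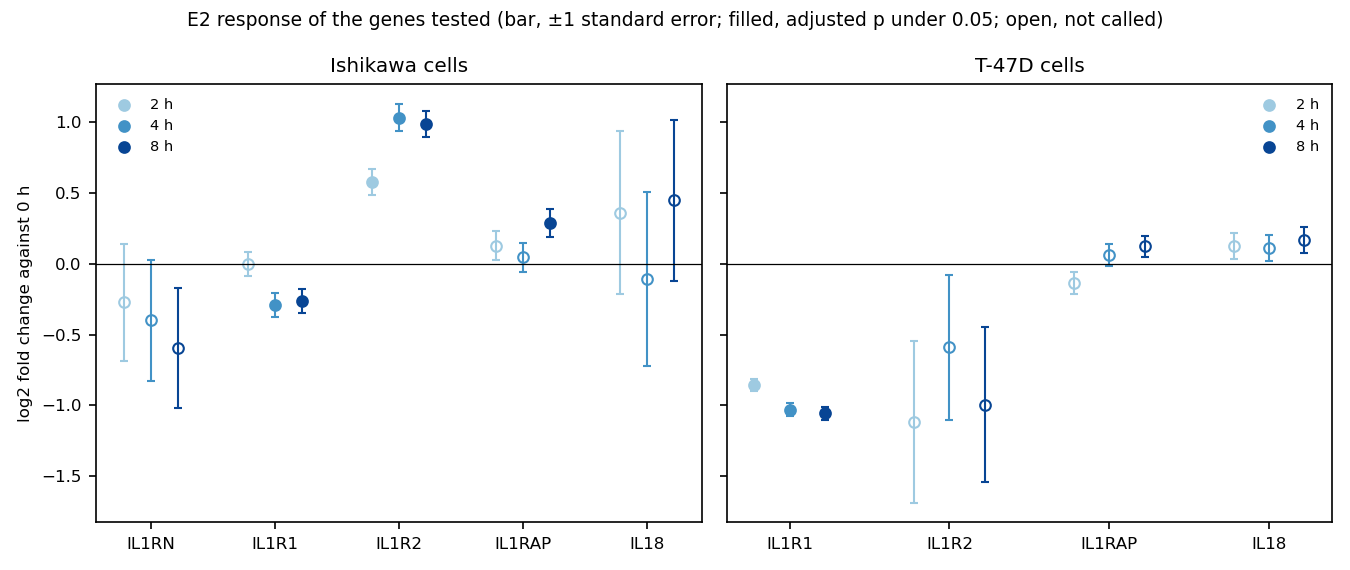
Log2 fold change against 0 h at 2, 4 and 8 h (light to dark blue) for the members tested in Ishikawa (left) and T-47D cells (right), with bars of 1 standard error; filled points passed an adjusted p under 0.05. IL1R2 rises to 0.99 after 8 h in Ishikawa cells and IL1R1 falls to -1.06 in T-47D cells, while the bars of IL1RN and IL18 in Ishikawa and IL1R2 in T-47D cells are wide.

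The accessory receptor gene IL1RAP moved less. In Ishikawa cells it stood at 12.6 and 13.0 CPM at 0 h, 14.5 and 13.4 after 2 h, 13.7 and 12.6 after 4 h, and 16.4 and 15.0 after 8 h. Both 8 h libraries were above all others. The 8 h change of 0.29 (SE 0.10, adjusted p = 0.0477) passed the test, but with 4 h and 8 h as 1 group it was 0.18 (adjusted p = 0.208), and it was lost when any library but 4 h replicate 2 was left out (largest adjusted p = 0.241, without 8 h replicate 1) and under 6 of 7 other alternatives. In T-47D cells IL1RAP held 20.7 and 20.3 CPM at 0 h and 18.6 to 23.2 CPM in the treated libraries. Its changes there were -0.13, 0.06 and 0.12 (SE 0.08 at each time), and none was called.

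IL18 reached 12.5 to 15.6 CPM in T-47D cells and 0.146 to 0.769 CPM in Ishikawa cells. In T-47D cells it stood at 14.9 and 12.5 CPM at 0 h, 15.1 and 15.0 after 2 h, 14.7 and 15.1 after 4 h, and 15.3 and 15.6 after 8 h, on 504 to 921 counts. The 2 replicates at 0 h differed more than any treated pair did. Changes of 0.12, 0.11 and 0.17 (SE 0.09 each) did not pass the test (adjusted p = 0.469, 0.426 and 0.193), although after 8 h the value without 0 h replicate 1 was 0.31 (adjusted p = 0.0389). Ishikawa libraries held 25 and 14 counts at 0 h, 20 and 33 after 2 h, 6 and 26 after 4 h, and 46 and 15 after 8 h. These replicates spread over as wide a range as the groups, and changes of 0.36 (SE 0.57), -0.11 (SE 0.61) and 0.45 (SE 0.57) were not called. With 4 h and 8 h as 1 group the value was 0.21 (adjusted p = 0.796).

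In all, 3 of the 5 members tested were called at some time in Ishikawa cells, IL1R2, IL1R1 and IL1RAP, beside 24.3% of all genes. At 4 h IL1R2 and IL1R1 were called, beside 14.3% of all genes, and after 8 h all 3 were, beside 22.1%. By direction after 8 h, 2 members were higher, beside 12.0% of genes, and 1 was lower, beside 10.1%. The count was 2 with 4 h and 8 h as 1 group. The median log2 change of the 5 tested members after 8 h was 0.29, beside -0.0088 over all genes, and that of the 4 tested in T-47D cells was -0.44, beside 0.0030. The first is the value of IL1RAP alone, and the second lies between IL1R2 and IL1RAP, neither of them called in T-47D cells. Members lay on both sides of 0 after 8 h, from -0.59 to 0.99 in Ishikawa and from -1.06 to 0.17 in T-47D cells. Whether the members shifted as a set was not tested.

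The response to E2 differed between the lines for IL1R1 and IL1R2, tested as an interaction term over 17090 genes. For IL1R1 the T-47D change minus the Ishikawa change was -0.84 (SE 0.10, adjusted p = 1.04e-05) after 2 h, -0.73 (SE 0.10, adjusted p = 4.88e-05) after 4 h and -0.80 (SE 0.10, adjusted p = 1.1e-05) after 8 h. For IL1R2 it was -1.68 (SE 0.52, adjusted p = 0.114) after 2 h, -1.60 (SE 0.46, adjusted p = 0.0421) after 4 h and -1.99 (SE 0.50, adjusted p = 0.0127) after 8 h. The IL1R2 values rest on 6 to 19 counts per T-47D library, and the call after 8 h was lost without T-47D 0 h replicate 1 (-1.67, adjusted p = 0.177) or 8 h replicate 1 (-1.84, adjusted p = 0.0742). The call after 4 h was lost without any of 9 of the 16 libraries, which were both Ishikawa 0-h libraries, the T-47D libraries of 0, 2 and 8 h and T-47D 4 h replicate 2 (largest adjusted p = 0.362, without T-47D 0 h replicate 1). Of all genes, 2.67% were called after 2 h, 6.03% after 4 h, 10.0% after 8 h and 11.8% at any time. IL1RN, IL1RAP and IL18 were called at none of the 3 times. With 4 h and 8 h as 1 group the difference was -0.76 for IL1R1 (adjusted p = 1.91e-06) and -1.77 for IL1R2 (adjusted p = 0.00655). Of the other genes of the system listed further on, 42 were tested in this way, and 1 was called after 2 h, 3 after 4 h and 3 after 8 h.

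The number of IL1R2 counts per 100 IL1R1 counts was also taken within each library. In Ishikawa cells there were 86.8 and 85.7 IL1R2 counts per 100 IL1R1 counts at 0 h, 130 and 128 after 2 h, 262 and 177 after 4 h, and 174 and 241 after 8 h. All 6 treated libraries were above both 0-h libraries. In T-47D cells the same number was 0.158 to 0.230 at 0 h and 0.138 to 0.322 over the treated libraries, which overlapped. Since the genes differ in length, the number is not a ratio of transcripts.

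The receptor genes sit in a cluster on chromosome 2. Of the other protein-coding genes that start within 500 kb of the IL1R1 start, the tables held MAP4K4, IL1R2, IL1RL2, IL1RL1, IL18R1, IL18RAP and SLC9A4. In Ishikawa cells 4 of these 8 genes, IL1R1 included, were tested. IL18R1 encodes the IL-18 receptor chain, and its outermost annotated start lies 247 kb from that of IL1R1, as does that of IL1RL1. Single transcripts of these genes may start elsewhere. IL18R1 rose by 0.75 after 4 h (adjusted p = 0.00281) and by 0.87 after 8 h (SE 0.14, adjusted p = 0.000709) on the log2 scale. Its levels were 4.77 and 3.95 CPM at 0 h, 5.95 and 5.69 after 2 h, 6.78 and 7.83 after 4 h, and 7.92 and 8.02 after 8 h, so every treated library was above both 0-h libraries. MAP4K4, a kinase gene at the other end, was not called after 8 h (0.14, SE 0.05, adjusted p = 0.0767). IL1RL1, IL1RL2, IL18RAP and SLC9A4 held at most 4 counts in any Ishikawa library. In T-47D cells IL18R1 held 0 to 4 counts, and MAP4K4 changed by 0.02 (SE 0.05) after 8 h, not called.

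A further 58 genes of the system were described by list: 8 family ligands and antagonists, 7 family receptors, 9 genes of cytokine processing, 18 of signalling and 16 known to be induced by interleukin-1. Of the 42 tested between the lines at 0 h, 20 were higher in T-47D cells, beside 39.5% of all genes, 16 were lower, beside 42.4%, and 6 were not called. Their median difference was 0.11, beside -0.053 over all genes. Among the processing genes, 4 were higher in T-47D cells, 1 was lower and 1 was not called. CASP1, caspase-1 itself, held 32 and 59 counts at 0 h in T-47D cells and 0 in both Ishikawa libraries. The mean of its 2 T-47D libraries was at least 17.2-fold higher, with a floor of 3 counts per library at 0. This bound and those that follow use the mean CPM of the higher line and do not cover the spread of its 2 libraries. They also take each count as 1 fragment, and whether the excess of even counts given above bears on them was not tested. The adaptor gene PYCARD (4.82, SE 0.52, adjusted p = 3.58e-08) and the pore-forming GSDMD (3.53, SE 0.09, adjusted p = 1.59e-18) were also higher there, and NLRC4 was lower (-2.82, SE 0.52, adjusted p = 5.05e-05). IL18, CASP1, PYCARD and GSDMD were all higher in T-47D cells, while IL1B was near 0 in both lines. These are single genes of a comparison in which 81.9% of all genes tested differed. The processing genes NLRP3, AIM2 and CASP5 were near 0 in both lines, with at most 8, 2 and 2 counts in a library. The receptor gene IL18R1 held 0 to 4 counts in T-47D cells.

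Of the signalling genes, 10 were higher in T-47D cells, 6 lower and 2 not called, beside 39.5% of all genes higher and 42.4% lower. The adaptor MYD88 was at 74.1 and 82.3 CPM in T-47D and 3.13 and 3.18 CPM in Ishikawa cells at 0 h (4.63, SE 0.11, adjusted p = 4.58e-19). IRAK2 (4.13, adjusted p = 4.46e-09), IRAK3 (2.67, adjusted p = 0.00324) and TAB3 (1.46, adjusted p = 1.55e-13) were higher there too. Of the induced genes, 5 were higher, 5 lower and 2 not called, beside the same shares of all genes. PTGS2, the inducible cyclooxygenase, held 263 and 197 counts in Ishikawa and 0 in both T-47D libraries, at least 65.4-fold lower in T-47D cells, and CXCL1 and CXCL3 were at least 12.9-fold and 11.6-fold lower. LCN2, the lipocalin-2 gene, held 280 and 267 counts in Ishikawa and 11 and 0 in T-47D libraries, and was 43.2-fold lower in T-47D cells (adjusted p = 1.17e-10). CCL2, a monocyte chemokine, held 111 and 143 counts in T-47D and 0 in both Ishikawa libraries, at least 47.8-fold higher. Of the receptors, IL18R1 (at least 58.7-fold), IL1RAPL2 and SIGIRR were lower in T-47D cells and IL1RL2 was higher. The calls of IL1RAPL2 and IL1RL2 rest on few counts. At 0 h IL1RAPL2 held 5 and 13 counts in Ishikawa and 2 and 0 in T-47D libraries. IL1RL2 held 0 and 2 in Ishikawa and 14 and 5 in T-47D libraries. IL36RN, the antagonist of the IL-36 branch, was lower in T-47D cells as IL1RN was (-2.33, SE 0.50, adjusted p = 0.000256).

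After E2, 10 of the 36 listed genes tested in Ishikawa cells and 10 of the 37 tested in T-47D cells were called at some time, beside the 24.3% and 34.2% of all genes given above. In Ishikawa cells after 8 h, 6 were higher, beside 12.0% of all genes, and 4 lower, beside 10.1%. The median log2 change was 0.03, beside -0.0088 over all genes. Among the induced genes CEBPD, a C/EBP transcription factor gene, stood at 9.28 and 9.34 CPM at 0 h and 17.9 to 21.3 CPM in all treated libraries, and rose by 1.02, 1.08 and 1.11 at 2, 4 and 8 h (SE 0.10 each, adjusted p = 1.14e-05, 4.56e-06 and 3.2e-06). PTGS2 rose by 0.62 after 8 h (SE 0.17, adjusted p = 0.0178) and SOD2, the mitochondrial superoxide dismutase, by 0.24 (adjusted p = 0.0190). CHUK, the IKK-alpha kinase gene, rose by 0.45 (adjusted p = 0.000357) and TOLLIP by 0.23 (adjusted p = 0.0122). TAB1 fell by 0.33 (adjusted p = 0.00498), NFKB2 by 0.25 (adjusted p = 0.0208), SIGIRR by 0.29 (adjusted p = 0.0158) and GSDMD by 0.45 (adjusted p = 0.0342). The count of 10 was 5 when 0 h replicate 2 was left out. With 4 h and 8 h as 1 group it was 10, and the changes were 1.09 for CEBPD, 0.81 for IL18R1, 0.51 for PTGS2, 0.44 for CHUK, 0.25 for TOLLIP, 0.21 for SOD2, -0.37 for GSDMD, -0.35 for TAB1, -0.26 for SIGIRR and -0.25 for NFKB2, all of them called (highest adjusted p = 0.0351, for GSDMD).

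In T-47D cells after 8 h, 3 listed genes were higher, beside 15.4% of all genes, and 7 lower, beside 14.3%. The median log2 change was -0.06, beside 0.0030 over all genes. CEBPD fell there, from 16.1 and 16.4 CPM at 0 h to between 9.42 and 11.2 CPM in all treated libraries (-0.61, -0.73 and -0.66 at 2, 4 and 8 h, adjusted p = 0.00023, 1.87e-05 and 3.45e-05). CCL2 fell by 1.10 after 2 h (SE 0.22, adjusted p = 0.00234) and by 0.66 after 8 h (adjusted p = 0.0227). NFKBIA, which encodes the NF-kB inhibitor, fell by 0.27 (adjusted p = 0.000724), NFKB1 by 0.23 (adjusted p = 0.00694), MYD88 by 0.15 (adjusted p = 0.0446) and GSDMD by 0.34 (adjusted p = 2.82e-05). BIRC3, an apoptosis inhibitor gene, rose by 0.77 (SE 0.22, adjusted p = 0.0125), CHUK by 0.25 (adjusted p = 0.00168) and IRAK1 by 0.20 (adjusted p = 0.00578). The family ligands and antagonists had no call at any time in either line.

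**Figure D4:**
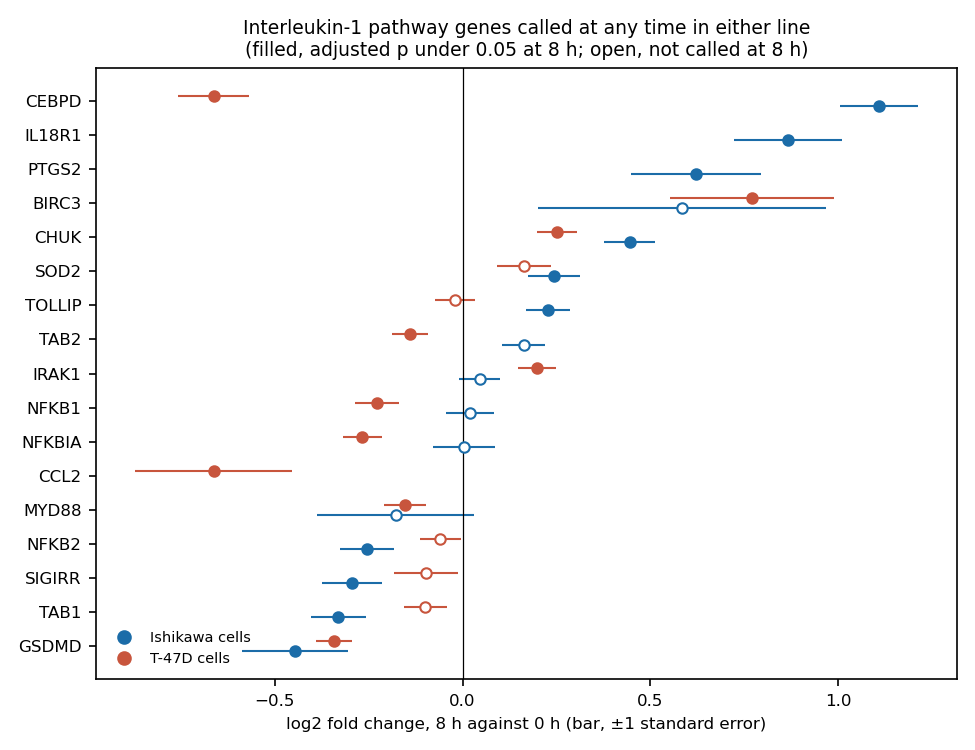
Log2 fold change after 8 h of the 17 listed genes called at any time in either line, blue for Ishikawa and red for T-47D cells, with bars of 1 standard error; filled points passed an adjusted p under 0.05 after 8 h and open points did not, and a gene below the count filter in a line has no point there. CEBPD stands at 1.11 in Ishikawa and -0.66 in T-47D cells, and GSDMD is below 0 in both.

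For members with a mean of at least 20 counts per library, the 3 genes most like each were ranked by Pearson r of log2 CPM over the 8 libraries of a line, which share the treatment and their scaling. For IL1R2 in Ishikawa cells these were ALPPL2 (r = 0.999), CKB (r = 0.997) and SLC7A5 (r = 0.996), with 8 h changes of 3.55, 2.12 and 0.83. For IL1R1 in T-47D cells they were BLNK (r = 0.996), FAM78A (r = 0.992) and TAOK3 (r = 0.992). In Ishikawa cells IL1R1 was most like ITGB6 (r = 0.995), TIMP2 (r = 0.994) and MYOF (r = 0.992), and IL1RN was most like TTC39C-AS1 (r = 0.976), PTRHD1 (r = 0.968) and TRIO (r = 0.959). Such values are high by selection among all genes that passed the filter.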

How the data were processed

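Raw counts per gene were deposited by the authors, 1 table for each line, from HISAT2 alignments to hg19 (handled with SAMtools) that featureCounts had summed over UCSC Known Genes. Tool versions, the strand setting and the treatment of read pairs are not given in the sources used here. Totals were 41177912 to 64148903 counts per library.

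Tests on these counts used edgeR 4.0.16 under R 4.3.3 (filterByExpr, TMM scaling, quasi-likelihood F-test, Benjamini-Hochberg adjustment over all genes tested, adjusted p under 0.05). Each line was fitted over its 8 libraries with time as a factor, and differences between lines over all 16. A standard error is the fitted log2 change over the root of its F value. DESeq2 1.42.0 was an alternative. Per-length levels divided CPM by the union of GENCODE exons on GRCh37. On simulated counts in which 200 genes had a log2 change of 1, the 8 h comparison recovered 76.5% of them in Ishikawa (5.56% of calls false) and 85.5% in T-47D cells (6.56% false), on 15787 and 15594 genes. These counts were drawn from the spread that edgeR fitted for each gene. They lacked the likeness of late Ishikawa libraries across labels and the excess of even counts, so the rates hold for such counts only.

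The members and lists were chosen with earlier results of these data known. All members are named. The 3 genes most like a member are named for IL1R1, IL1R2 and IL1RN, and not for IL1RAP and IL18. From each list, up to 4 genes per line with the largest changes past the threshold, and up to 4 with the largest differences at 0 h, are named. The order is that of the fitted log2 differences, which for genes at 0 counts depend on the prior count, so LCN2, next in that order, is named as well, after its values were seen. The protein-coding genes within 500 kb of IL1R1 were chosen after values were seen.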

Additional observations from a re-analysis of the deposited data

Results flagged for a closer look

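Flagged here are 12 results in which the response to E2 differed between the cell lines in an interaction test (edgeR's quasi-likelihood test, Benjamini-Hochberg adjustment over 17090 genes). The T-47D change minus the Ishikawa change of IL1R1 was -0.84 after 2 h, -0.73 after 4 h and -0.80 after 8 h, with adjusted p of 1.04e-05, 4.88e-05 and 1.1e-05. That of IL1R2 was -1.60 at 4 h (adjusted p = 0.0421) and -1.99 at 8 h (adjusted p = 0.0127), on 6 to 19 counts per T-47D library. Of the 42 listed genes tested, 1 was called after 2 h, 3 after 4 h and 3 after 8 h, beside 2.67%, 6.03% and 10.0% of all genes. The number of calls is close to these shares and does not set the listed genes apart. The value of CEBPD was -1.61 after 2 h, -1.79 after 4 h and -1.77 after 8 h (adjusted p = 2.97e-07, 5.28e-08 and 4.52e-08), with a rise in Ishikawa and a fall in T-47D cells. In each line both 8 h libraries of CEBPD lay on that side of both 0 h libraries. That of TOLLIP was -0.29 after 4 h (adjusted p = 0.0266) and -0.25 after 8 h (adjusted p = 0.0442). TAB1 had 0.32 after 4 h (adjusted p = 0.0455) and TAB2 had -0.31 after 8 h (adjusted p = 0.00945).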

How the results depend on the processing

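With 2 libraries per group, precision is limited most for IL1RN, IL1A and IL1B in both lines, IL18 in Ishikawa and IL1R2 in T-47D cells. The rise of IL1R2 in Ishikawa and the fall of IL1R1 in T-47D cells kept direction and call under every alternative run: DESeq2, RLE scaling, both filters, the block, both sample choices and each library left out.

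Counts moved as follows. Members called in Ishikawa cells were 3, and 1 at an adjusted p under 0.01, with 1 to 3 when 1 library was left out (1 without either 0 h or either 2 h library). Members called in T-47D cells were 1, and 1 to 2 with a library left out. Members that differed at 0 h were 5, and 2 with at least 10 counts in every library. Members with a different response were 2, and 1 with that filter or at an adjusted p under 0.01, and 1 to 2 with a library left out. Listed genes called were 10 in Ishikawa cells, 5 at an adjusted p under 0.01 and 5 to 13 with a library left out, and 10 in T-47D cells, 16 at an adjusted p under 0.1. The cause of each was not tested, beyond the fewer genes that the stricter filter and thresholds leave.

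The replicate number did not pair the libraries (correlation of deviations between times -0.215 to 0.0606 in Ishikawa and -0.0705 to 0.115 in T-47D cells). Under the replicate block, members called in Ishikawa cells were 2, since IL1RAP lost its call at 8 h (0.29, adjusted p = 0.0569). IL1R1 lost its call at 8 h (-0.26, adjusted p = 0.0516) and kept that at 4 h, and the difference of IL1R2 at 4 h was -1.62 (adjusted p = 0.0552). The block changed no other call of a member. A crossed block, with the Ishikawa 8 h numbers exchanged, was chosen after seeing the data and gave 3 members and 10 listed genes.

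The difference of IL1R2 between the lines at 2 h, not called, passed with DESeq2 (-1.72, adjusted p = 0.0122), without a filter (-1.69, adjusted p = 0.00453), with only the groups compared (-1.71, adjusted p = 0.0133) and without any 1 of the 4 Ishikawa 4 h and 8 h libraries. Where a library was left out, the lone one of its group was assumed to vary like the other groups. Directions turned only in values that were not called. As 1 group of 4 h and 8 h, IL18 in Ishikawa cells was 0.21 at 4 h, and the differences at 4 h were -0.079 for IL1RAP and -0.098 for IL18. The difference of IL1RAP at 4 h was -0.011 with DESeq2 and -0.010 with RLE scaling. With a library left out, the Ishikawa change of IL1R1 at 2 h ranged from -0.0087 to 0.0098, of IL1RAP at 4 h from -0.0097 to 0.094, and of IL18 from -0.0021 to 0.85 at 2 h, -1.48 to 0.57 at 4 h and -0.30 to 0.93 at 8 h. IL18 in T-47D cells ranged from -0.0015 to 0.26 at 4 h. The difference between lines ranged for IL1RN from -0.31 to 0.16 at 2 h and -5.12 to 0.095 at 4 h, for IL1RAP from -0.038 to 0.062 at 4 h, and for IL18 from -0.75 to 0.14 at 2 h, -0.47 to 1.59 at 4 h and -0.83 to 0.44 at 8 h.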
